A study of Mus musculus with 2 samples.

Results

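The CLIC family is a set of chloride intracellular channel proteins, and 5 of its genes, Clic1, Clic3, Clic4, Clic5 and Clic6, were followed through mouse lung cells that had been injured with bleomycin. The members were the rows of these 5 symbols among the 31053 genes of the 2 matrices, and all 5 were present in both. The mice were Pclaf WT or Pclaf KO, 8 to 10 weeks old, and had been given bleomycin 1 week earlier, at 1.35 U/kg by the labels. The study's text names other doses for its bleomycin experiments. Their lung cells were sorted as Cd31- and Cd45- but Epcam+, and 16000 cells were loaded for each droplet library. There was 1 library per genotype, so no difference between the genotypes has a replicate and none was tested. Every mouse had received bleomycin, and no uninjured lung entered the comparison. PCLAF is a PCNA-associated factor of dividing cells, and how many mice went into a library, and which part of Pclaf the KO allele removes, are not given in the sources used here.

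CLIC proteins share the fold of glutathione S-transferases and exist both as soluble proteins and in membranes, where they can carry chloride. Several of them sit near the cell cortex with ezrin, radixin and moesin, the proteins that tie membranes to actin. CLIC4 takes part in the tube formation of endothelial cells and, through SMAD proteins, in TGF-beta signalling. CLIC5 is known from the stereocilia of the inner ear and the podocytes of the kidney. CLIC1 is expressed broadly, CLIC3 acts in the recycling of membrane proteins, and CLIC6 is a longer member of the family. AT1 and AT2 cells are the flat gas-exchange cells and the surfactant-making cells of the alveolus, and Krt8+ transitional cells lie between them after injury.

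The 5 genes lie at 5 separate places in the mouse genome (GRCm38, GENCODE M21 annotation). Clic1 is at chr17:35049966-35058749 on the plus strand and Clic5 on the same chromosome at chr17:44188584-44280172, also on the plus strand. Clic3 is at chr2:25456838-25458776 on the plus strand, where Paxx overlaps it on the opposite strand. Clic4 is at chr4:135213969-135272814 on the minus strand, and Clic6 at chr16:92485736-92541243 on the plus strand, where the transcript 2410124H12Rik overlaps it on the same strand. The RefSeq promoter, 250 bases before to 50 bases after the start, was found for 4 of the 5 genes (GRCm38.p6), all but Clic6. These were searched on both strands for the cell-cycle homology region TTTGAA, which the DREAM repressor complex of cell-cycle genes is known to bind, and for the E2F letters TTTGGCGC and TTTCGCGC. Only the Clic4 promoter held a match, a single TTTGAA that begins 35 bases before the RefSeq start and lies inside the first exon of the longer GENCODE model. Clic1, Clic3 and Clic5 held none of the letters, and none of the 4 promoters searched held the E2F letters. Of all 32851 mouse promoters of this length, 17.9% held TTTGAA on either strand and 0.813% an E2F match. The Clic4 promoter is shown because it alone held a match. It spans chr4:135272711-135273010 on the minus strand, 73.3% of its bases are G or C, and the capitals mark TTTGAA.
Clic4: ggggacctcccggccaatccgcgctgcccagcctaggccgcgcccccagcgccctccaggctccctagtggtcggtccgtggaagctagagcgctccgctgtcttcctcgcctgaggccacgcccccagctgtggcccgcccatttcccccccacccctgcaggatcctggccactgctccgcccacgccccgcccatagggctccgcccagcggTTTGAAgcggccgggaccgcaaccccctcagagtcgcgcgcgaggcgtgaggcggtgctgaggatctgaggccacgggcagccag

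Although both libraries are labelled as sorted epithelial cells, they held different cells. The WT library had 30187 cells after filtering, of which 5.58% were epithelial, 27.8% endothelial, 8.61% mesenchymal and 42.9% immune. That is more than the 16000 cells loaded, so not every WT barcode can stand for a loaded cell of its own. Cell counts and shares are therefore those of barcodes that passed the filter. The KO library had 15637 cells, of which 71.7% were epithelial, 2.95% endothelial, 17.4% mesenchymal and 3.90% immune. The lineages were named from 10 markers each (Epcam, Pecam1, Col1a1 and Ptprc among them). Left without a lineage were 4462 WT cells (14.8%) and 465 KO cells (2.97%). They lay in clusters whose markers were mixed, too few or of another lineage, and entered no lineage or class. The libraries totalled 98171818 UMIs (unique molecular identifiers, each standing for 1 captured transcript) in WT and 111267567 in KO, with a median of 2127 and 5957 UMIs per kept cell, and 163 barcodes occurred in both. Pclaf itself was read at 160 UMIs per 1000000 UMIs in WT and 118 in KO in the cycling PAPC-like class (28 and 276 UMIs). Over all epithelial cells it was read at 9.21 in WT and 4.78 in KO. UMIs mark the 3' end, and with the deleted part unknown these counts cannot check the genotype, so WT and KO stand for the labels of the libraries throughout.

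Because the lineages were so unequal, each Clic gene was compared within a cell type. Its level was the number of its UMIs per 1000000 UMIs of all cells of that type (CPM), and the difference was the log2 ratio of the KO to the WT level with its 95% interval from the UMI counts. Intervals cover counting error only. No ratio was formed where either library had fewer than 10 UMIs. UMI levels are compared across cell types and libraries, never between genes. The plot of levels by cell class gives all 5 genes in each class.

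**Figure D1:**
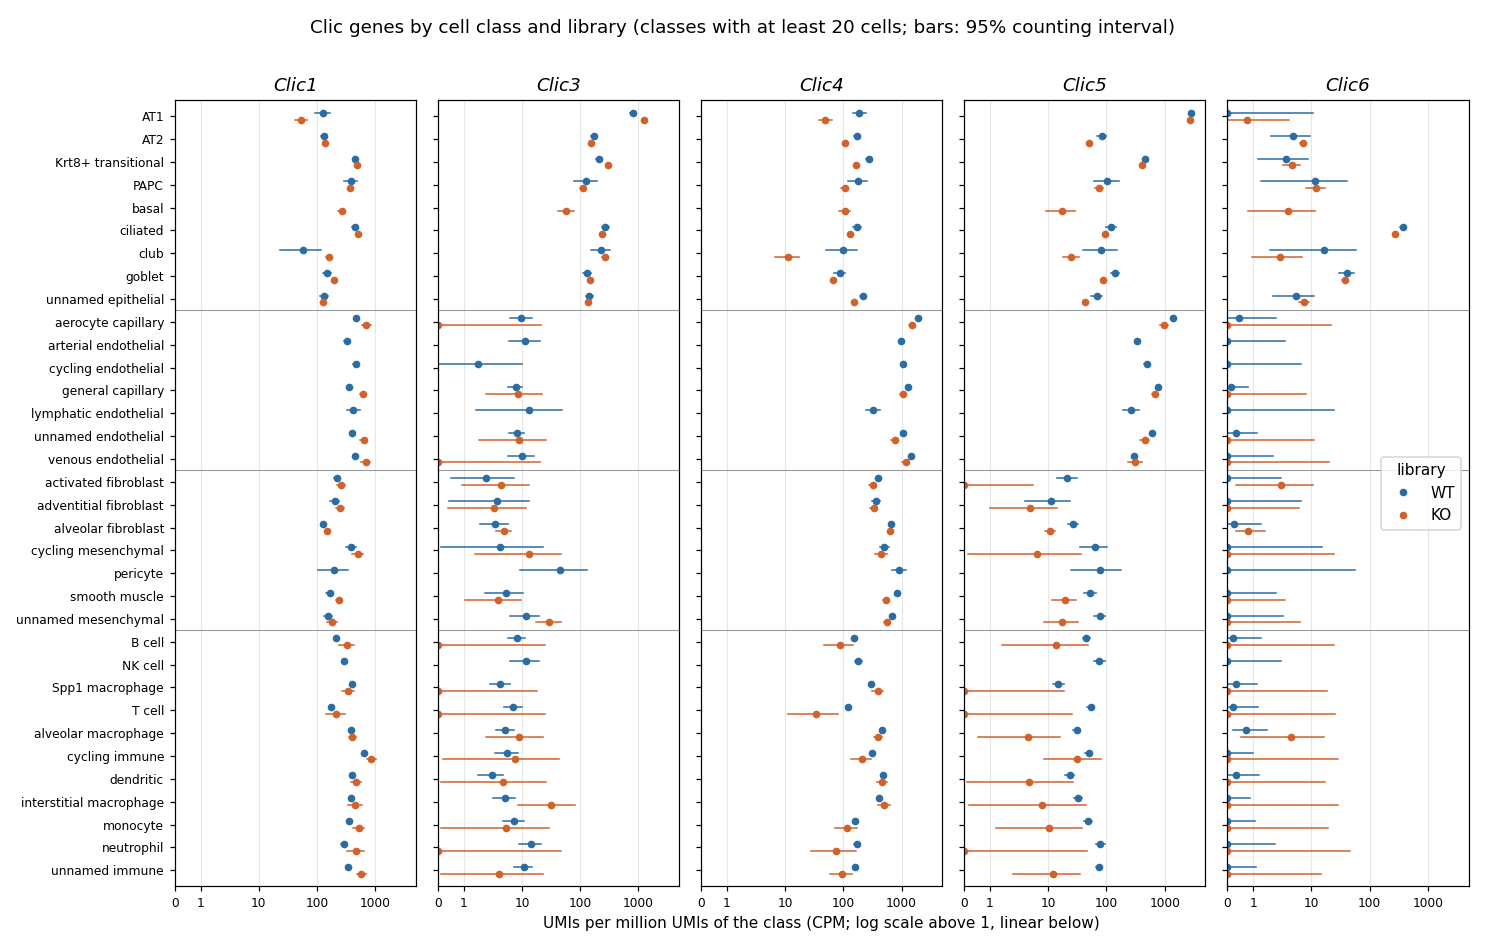
Level of each Clic gene (CPM, log axis above 1 and linear below) in the cell classes with at least 20 cells of a library; blue points are WT, orange points KO, bars the 95% counting interval, and grey lines part the epithelial, endothelial, mesenchymal and immune classes. Clic5 peaked in the AT1-like class (2841 in WT and 2757 in KO), Clic4 in the aerocyte capillary class (1916 and 1520) and Clic6 in the ciliated class (370 and 278).

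Clic4 was foremost an endothelial gene of these lungs. Its level in endothelial cells was 1272 CPM in WT and 1035 in KO. In mesenchymal cells it was 635 and 591, in immune cells 297 and 261, and in epithelial cells 186 and 115. The order of the 4 lineages was therefore the same in both libraries, with epithelial cells last. In both libraries the aerocyte capillary-like class (the capillary cells that face the gas-exchange surface) was highest, followed by venous-like and general capillary-like cells. Mesenchymal classes such as alveolar fibroblast-like and smooth muscle-like cells followed at lower levels. Among the ordered classes of WT, the intervals of 23 of 32 neighbouring pairs overlapped, and in KO 25 of 28. In WT the aerocyte, venous and general capillary classes did not overlap with the next class down. In KO the aerocyte class overlapped with the venous class, and the venous with the general capillary class. Since the WT library was rich in endothelial cells, they held 54.6% of the Clic4 UMIs of the 4 lineages there and epithelial cells 2.92%, against 6.94% and 49.1% in KO.

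In epithelial cells Clic4 was lower in KO, at a log2 ratio of -0.70 (95% interval -0.78 to -0.61), or 1.62-fold. Of the 5 members, Clic4 and Clic5 were at least 1.5-fold lower in KO epithelial cells and none was at least 1.5-fold higher. Among all 14894 genes with at least 50 UMIs in epithelial cells, 13.8% were at least 1.5-fold lower and 3.69% at least 1.5-fold higher, with a median log2 ratio of -0.15. With every cell thinned to an equal depth of 1000 UMIs, a Clic4 UMI was found in 16.2% of 1268 epithelial cells of WT and 10.4% of 10778 of KO. At full depth, with median depths of 3426 and 6585 UMIs, the shares were 41.7% and 44.9%, the opposite order.

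Clic4 was also lower in KO within each epithelial class with enough UMIs. AT2-like cells had 172 CPM in WT and 106 in KO (log2 ratio -0.70). Krt8+ transitional-like cells had 274 and 163 (-0.75). PAPC-like cells, only 31 in WT and 262 in KO, had 177 and 105 (-0.76, interval -1.30 to -0.17). AT1-like cells had 190 and 49.3 (-1.94, interval -2.46 to -1.43, from 65 and 66 UMIs). The club-like class gave the lowest ratio, -3.13, but from 12 and 19 UMIs. The smallest differences were in ciliated-like cells, with 174 and 129 (-0.43), and goblet-like cells, with 86.7 and 66.8 (-0.38). All 8 classes with a ratio lay below 0 with intervals below 0, and 5 of them were at least 1.5-fold lower. The share of all genes at least 1.5-fold lower was 8.07% in the AT1-like, 10.7% in the AT2-like, 7.61% in the Krt8+ transitional-like, 15.8% in the PAPC-like and 22.1% in the club-like class. It was 6.55% in the ciliated-like, 13.9% in the goblet-like and 9% in the unnamed epithelial class, where Clic4 did not reach 1.5-fold. Basal-like cells held 4 Clic4 UMIs in WT, too few for a ratio.

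Transcripts of other lineages were also more frequent in WT epithelial cells. The summed level of the 10 endothelial markers in epithelial cells was 244 CPM in WT and 29.4 in KO, an 8.30-fold difference, and that of the 10 immune markers 308 and 29.1, a 10.6-fold difference. The 10 mesenchymal markers summed to 828 and 336, and none of these markers was at 0 in either library. Clic4 is itself high in those lineages. In PAPC-like cells the endothelial markers summed to 361 CPM in WT and 40.3 in KO (8.95-fold). To put the values on 1 scale, the Clic4 level of each other lineage was multiplied by the share of that lineage's marker level found in the epithelial cells, and the products were summed. This scaled level was 48.5 of the 186 CPM in WT and 7.03 of the 115 CPM in KO. Taking it off left the total UMIs as they were, here and wherever it is taken off below. A library with more RNA of other lineages therefore keeps too low a level after it, here WT, and the ratios after it are rough. With it taken off, the epithelial log2 ratio was -0.35, under 1.5-fold. In AT1-like cells the scaled level was 134 of 190 CPM in WT and 8.10 of 49.3 in KO, and the ratio after it was -0.43. By class, 7 of 8 ratios then remained below 0, 1 of them past 1.5-fold, with a median of -0.39 in place of -0.73 and the goblet-like class at 0.48. The class past 1.5-fold was the club-like one, at -2.52. The PAPC-like, Krt8+ transitional-like and AT2-like classes thus no longer reached 1.5-fold. Among equal-depth epithelial cells with no UMI of any marker of another lineage, the ratio was -0.53. How much of the difference came from transcripts of other cells was not tested beyond these values.

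**Figure D2:**
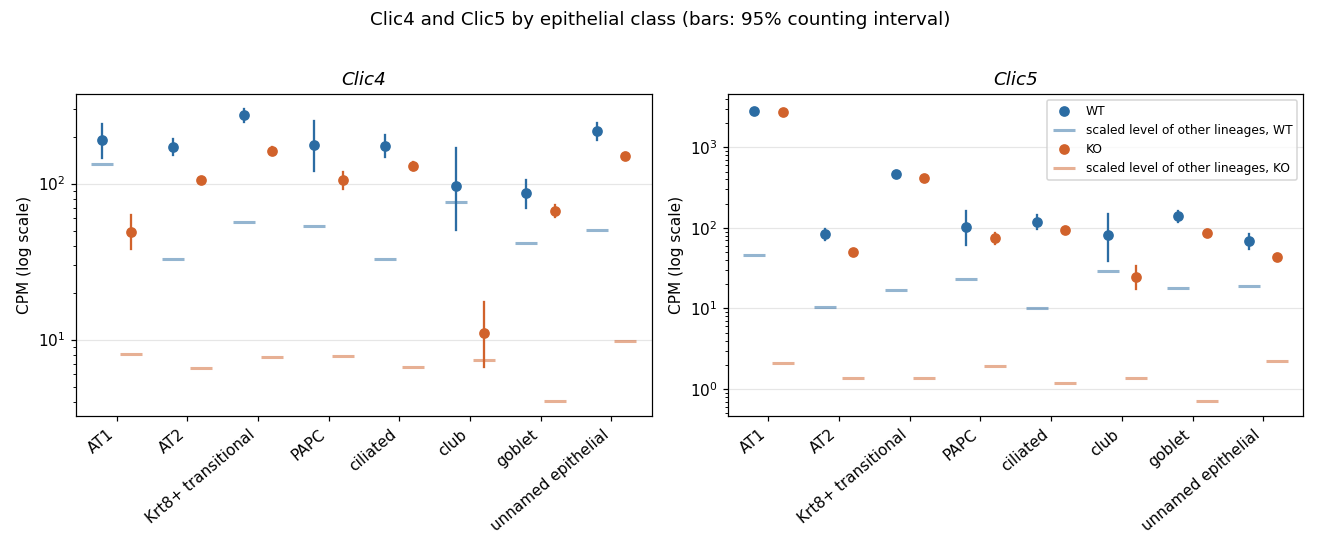
Levels of Clic4 (left) and Clic5 (right) in epithelial classes (CPM, log axis); points are the WT (blue) and KO (orange) library with the 95% counting interval, and short lines the scaled level of the other lineages. Clic4 lay lower in KO in all 8 classes, and in WT AT1-like cells the line (134) came close to the point (190); Clic5 of AT1-like cells lay far above its line in both libraries.

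The AT1-like and Krt8+ transitional-like classes were each made of 2 clusters that the libraries filled differently. The shallow AT1-like cluster, led by Akap5, Ankrd1, Igfbp2 and Hopx, held 220 WT and 179 KO cells with a median of 726 and 1002 UMIs. Its Clic4 level was 254 CPM in WT and 68.6 in KO. The deeper one, led by Rtkn2 and Cped1, held 33 WT and 164 KO cells and had 118 and 44.9. The Clic4 ratio thus lay below 0 in both, at -1.89 and -1.39. Markers of other lineages were higher in WT in both. In the shallow cluster the mesenchymal ones summed to 4374 CPM in WT and 775 in KO, and the immune ones to 1246 and 72.6. In the deeper one the mesenchymal ones summed to 743 and 183, and the endothelial ones to 477 and 42.1. These ratios are before the scaled level of the other lineages is taken off, and the bearing of these sums on them was not tested. Of the Krt8+ clusters, the larger (229 and 1206 cells) had 271 and 168 CPM of Clic4 (-0.69). The smaller and shallower one had 288 and 67.0 (-2.10), and among its leading genes were Tyrobp and Cd52, genes of immune cells, beside Cryab and Sprr1a.

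Taken over whole lineages, the Clic4 ratio was closer to 0 outside the epithelium. Single classes there reached 1.5-fold, but only before the scaled level of the other lineages was taken off. In endothelial cells the log2 ratio was -0.30 (interval -0.38 to -0.22), beside a median of -0.08 for all 11533 endothelial genes. There 4 of 4 classes with at least 20 cells in each library lay below 0. Aerocyte capillary-like cells went from 1916 CPM in WT to 1520 in KO (-0.33), general capillary-like cells from 1278 to 1047 (-0.29), and venous-like cells from 1436 to 1184 (-0.28). In mesenchymal cells the ratio was -0.10 (interval -0.15 to -0.05), close to the median of all 12208 mesenchymal genes, -0.09. All 6 mesenchymal classes with at least 20 cells in each library lay below 0, 3 with intervals below 0. With the class levels averaged at equal weight the ratio was -0.28. Alveolar fibroblast-like cells, which held 46.4% of the mesenchymal UMIs in WT and 76.5% in KO, had 658 CPM in WT and 635 in KO (-0.05, interval -0.12 to 0.01). Smooth muscle-like cells had 833 and 531 (-0.65), past 1.5-fold as were 12.7% of their genes. In immune cells the ratio was -0.19, near the immune median of -0.18, and 6 of 8 classes lay below 0, with Spp1 macrophage-like cells highest at 0.40. Past 1.5-fold were 3 immune classes, the B cell-like (152 and 87.4 CPM, -0.80, from 633 and 13 UMIs), the unnamed (159 and 93.1, -0.77) and the cycling class (315 and 209, -0.59). Of all genes, 40.2%, 32.6% and 33.5% were at least 1.5-fold lower in these classes. With the scaled level of the other lineages taken off, 0 mesenchymal and 0 immune classes stayed past 1.5-fold. Below 0 were then 4 of 6 mesenchymal classes (lowest -0.54) and 5 of 8 immune classes (lowest -0.50). Over whole lineages, the endothelial ratio after it was -0.29, the mesenchymal -0.01 and the immune 0.03, beside -0.35 in epithelial cells. In thinned cells with no UMI of other lineages' markers the epithelial ratio was -0.53 and the endothelial -0.47, so the gap between these lineages was small on both measures. In endothelial cells both measures lean on few genes. Srgn held 476 of the 865 CPM of the immune markers in WT and 660 of 794 in KO, with Ptprc at 15.9 and 0. Mgp held 1003 of the 1624 CPM of the mesenchymal markers and 520 of 1073. The filter drops endothelial cells with such UMIs, and its effect on the ratio was not tested. The endothelial cells of KO (462) and the epithelial cells of WT (1685) were the minority of their libraries. Mesothelial cells, a lineage of 109 WT and 156 KO cells, stood on the other side, at 673 CPM in WT and 841 in KO (0.32, interval 0.16 to 0.48).

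**Figure D3:**
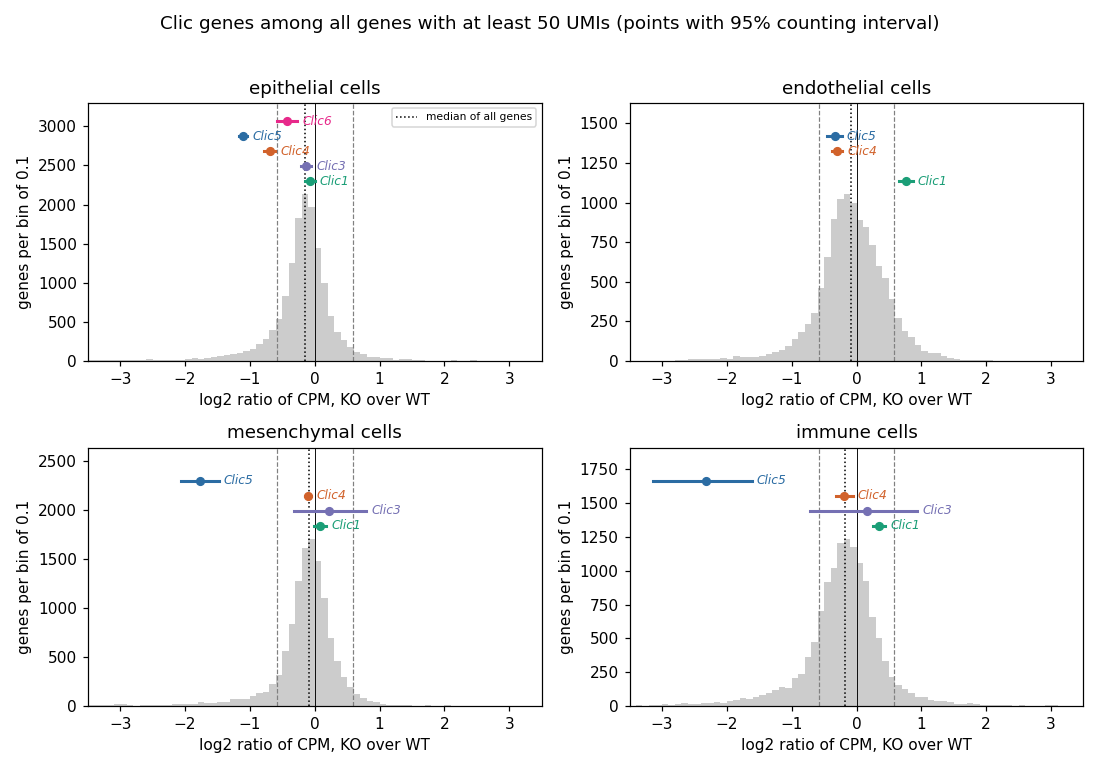
Log2 ratio of KO over WT for the Clic genes (points with 95% counting intervals) above the histogram of all genes with at least 50 UMIs in the lineage (grey, genes per bin of 0.1); dotted lines mark the median of all genes and dashed lines 1.5-fold. Clic5 (-1.11) and Clic4 (-0.70) lay past 1.5-fold in epithelial cells, Clic1 (0.76) in endothelial cells, and Clic5 in mesenchymal (-1.77) and immune cells (-2.32).

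Clic5 was the gene of AT1-like cells and capillaries. AT1-like cells held 2841 CPM in WT and 2757 in KO, followed in both libraries by aerocyte capillary-like cells, at 1385 and 968, and general capillary-like cells, at 781 and 679. These 3 classes did not overlap with the next class down in either library. Krt8+ transitional-like cells had 467 and 414, while AT2-like cells had 82.9 and 50.9. Within the epithelium Clic5 was therefore high at the AT1 end and low in the surfactant-making cells, in both libraries.

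Over all epithelial cells Clic5 was at 304 CPM in WT and 141 in KO, a log2 ratio of -1.11 (interval -1.18 to -1.04). AT1-like cells, the main epithelial site of Clic5, numbered 253 of 1685 epithelial cells in WT (15.01%) and 343 of 11217 in KO (3.06%). They held 46.1% and 32.6% of the epithelial Clic5 UMIs. Within AT1-like cells the ratio was -0.04 (interval -0.15 to 0.06), an interval that excludes a 1.5-fold difference in counting terms. That ratio is per all UMIs of the class. The summed epithelial markers of AT1-like cells were 2473 CPM in WT and 3431 in KO, 1.39-fold higher in KO. Which marker led this sum in AT1-like cells was not examined. Over all epithelial cells, the sum of the same markers leaned on 1 gene, Sftpb, with 3462 of 6026 CPM in WT and 4558 of 6862 in KO. Single other markers went either way there, with Krt8 at 546 and 415 and Cldn3 at 315 and 440. Markers of other lineages in AT1-like cells were higher in WT. The endothelial ones summed to 656 CPM in WT and 43.3 in KO, and the immune ones to 761 and 41.8. The mesenchymal ones summed to 2663 and 293, in WT above the epithelial sum. Whether Clic5 differed relative to epithelial transcripts alone was not tested. With the levels (CPM) of the epithelial classes averaged at equal weight, the Clic5 ratio was -0.14, an average in which the AT1-like level counts most. The median of the 8 class ratios was -0.56, and over epithelial cells without the AT1-like class the ratio was -0.84. The share of AT1-like cells is itself a value of 1 library each, and the sorted populations differed.

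Class by class, Clic5 stood below 0 in all 8 epithelial classes with a ratio, with intervals below 0 in 6 and 4 past 1.5-fold. The AT2-like class was at -0.70, the goblet-like at -0.68 (140 and 87.1 CPM), the unnamed epithelial class at -0.66 and the club-like at -1.72 (10 and 42 UMIs). Krt8+ transitional-like cells were at -0.17 and PAPC-like cells at -0.47 (interval -1.17 to 0.32). The AT1-like and Krt8+ classes, which held the most Clic5, were not among those past 1.5-fold. The smaller Krt8+ cluster stood apart at -1.39 (575 and 219 CPM). With the scaled level of the other lineages taken off, 8 of 8 classes stayed below 0, 1 of them past 1.5-fold, and the median moved from -0.56 to -0.23.

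In endothelial cells Clic5 had 713 CPM in WT and 563 in KO (-0.34, interval -0.45 to -0.23), below 0 in 3 of 4 classes. The lowest was the aerocyte capillary-like class (-0.52) and the highest the venous-like class (0.07, interval -0.35 to 0.47). Where Clic5 was low, its ratios were the most negative, with 37.1 and 10.9 CPM in mesenchymal cells (-1.77) and 40.6 and 8.12 in immune cells (-2.32, from 1806 and 16 UMIs). It was the 1 member at least 1.5-fold lower in these lineages, where 10.8% of mesenchymal and 19.5% of immune genes were. The scaled level of the other lineages made up 22.9 of the 37.1 CPM in WT and 5.77 of the 10.9 in KO for mesenchymal cells. For immune cells it was 30.9 of 40.6 in WT and 8.70 against 8.12 in KO, so that no ratio remained. The 10 endothelial markers summed to 403 CPM in WT immune cells and 80.7 in KO ones, and their part in the Clic5 difference was not tested.

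Clic1 went the other way in endothelial cells. It had 389 CPM in WT and 660 in KO, a log2 ratio of 0.76 (interval 0.66 to 0.87), the 1 member at least 1.5-fold higher there against 9.2% of the 11533 endothelial genes. No member was at least 1.5-fold lower in endothelial cells, where 13.2% of genes were. All 4 endothelial classes stood above 0, and 3 were past 1.5-fold, the general capillary-like, venous-like and unnamed classes. The share of all genes at least 1.5-fold higher was 9.25%, 10.1% and 10.4% in these, and 10.8% in the aerocyte capillary-like class. Aerocyte capillary-like cells had 472 in WT and 704 in KO, general capillary-like cells 349 and 605, and venous-like cells 442 and 684. At an equal depth of 1000 UMIs, 31.9% of WT and 42.5% of KO endothelial cells had a Clic1 UMI. The markers of other lineages in endothelial cells were higher in KO for the epithelium (38.0 and 155 CPM) and lower for mesenchymal cells (1624 and 1073). Single genes led these sums, Sftpb with 15.8 and 107 CPM and Mgp with 1003 and 520. Col3a1, also a mesenchymal marker, was higher in KO (39.0 and 53.3). With the scaled level of the other lineages taken off, the ratio was 0.82.

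Immune cells had 360 CPM of Clic1 in WT and 458 in KO (0.35, interval 0.25 to 0.44), below 0 in 1 of 10 classes. It did not reach 1.5-fold, and 5.99% of immune genes were at least 1.5-fold higher. In mesenchymal cells Clic1 had 162 and 172 (0.08, interval -0.02 to 0.18). All 6 mesenchymal classes stood above 0, from 0.21 to 0.53, and the lineage ratio lay under each of them. In epithelial cells Clic1 was at 238 and 226 (-0.08, interval -0.15 to -0.0025), which changed sign under 5 alternatives. By class it was higher in Krt8+ transitional-like cells (445 and 489), ciliated-like cells (440 and 507) and goblet-like cells (149 and 195), and lower in AT1-like cells (125 and 53.7, -1.22, from 43 and 72 UMIs). In AT1-like cells the scaled level of the other lineages was 62.8 of the 125 CPM in WT and 5.38 of the 53.7 in KO, and the ratio after it was -0.37. AT2-like cells had 132 and 134 (0.02, interval -0.18 to 0.22). Among classes with at least 20 cells in a library, the cycling immune-like class was the highest for Clic1 in both libraries (631 and 859). AT1-like cells stood far below it, at 125 and 53.7. Classes next to each other in this order were mostly close, with 30 of 32 neighbouring pairs overlapping in WT and 26 of 28 in KO.

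Clic3 and Clic6 were the epithelial members. Epithelial cells held 75.1% of the Clic3 UMIs of the 4 lineages in WT and 99.4% in KO, and 95.97% and 99.6% of those of Clic6. In endothelial cells Clic3 had 8.42 CPM in WT and 6.37 in KO (160 and 8 UMIs), and Clic6 4 UMIs in WT and 0 in KO, which allows up to 2.39 CPM. At an equal depth, a Clic3 UMI was found in 15.4% of epithelial cells in WT and 15.2% in KO, against 0.932% and 0.283% of endothelial cells. The mesothelial lineage was the other site of Clic3, with 198 CPM in WT and 149 in KO (-0.41, interval -0.74 to -0.08).

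Among epithelial classes Clic3 was highest in AT1-like cells, with 808 CPM in WT and 1270 in KO (0.65, interval 0.47 to 0.84). This was the 1 class past 1.5-fold for Clic3. In the same class the summed epithelial markers were also higher in KO, at 2473 CPM in WT and 3431 in KO (1.39-fold). Over all epithelial cells Sftpb led this sum, with 3462 of 6026 CPM in WT and 4558 of 6862 in KO. The endothelial, immune and mesenchymal markers of AT1-like cells were higher in WT, by 15.2-fold, 18.2-fold and 9.10-fold. How far the Clic3 ratio of AT1-like cells followed these marker differences was not tested. The share of all genes at least 1.5-fold higher was 18.2% in the AT1-like, 6.57% in the AT2-like, 7.54% in the Krt8+ transitional-like, 16% in the PAPC-like, 9.34% in the ciliated-like, 16.1% in the club-like, 7.38% in the goblet-like and 6.08% in the unnamed class. Both AT1-like clusters stood above 0, the shallow one at 0.95 (684 and 1320) and the deeper one at 0.41 (947 and 1259). Krt8+ transitional-like cells had 212 and 296 (0.48, interval 0.30 to 0.66). AT2-like cells were slightly below 0 (174 and 152, -0.19), and ciliated-like cells too (269 and 235, -0.20, interval -0.40 to 0.01). Over all epithelial cells these combined to 211 and 192 (-0.13). Averaging the class levels at equal weight, where the AT1-like level counts most, gave 0.32. The class ratios themselves had a median of 0.02, with 4 of 8 below 0. The sign of the epithelial Clic3 ratio thus differed between the 2 ways of averaging the levels. Taking off the scaled level of the other lineages left it at -0.13, since those lineages hold little Clic3. Reads of Paxx, on the opposite strand, count towards Clic3 only where counting ignores the strand, and the counting setting is not given in the sources used here.

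Clic6 was a gene of ciliated-like cells, which held 312 of 381 epithelial UMIs in WT and 2541 of 3277 in KO. Their level was 370 CPM in WT and 278 in KO (-0.41, interval -0.58 to -0.24), and goblet-like cells followed at 41.1 and 37.3 (-0.14, interval -0.59 to 0.35). AT1-like cells held 0 Clic6 UMIs in WT and 1 in KO. No other epithelial class had 10 UMIs in WT. The epithelial ratio was -0.43 (interval -0.58 to -0.27). It was nearly that of the ciliated-like class, whose share of the epithelial cells was 9.20% in WT and 10.8% in KO. Because 2410124H12Rik overlaps the gene on the same strand, some UMIs listed for Clic6 could belong to it.

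Set side by side, the members did not move as a group. In epithelial cells the log2 ratios were -0.08 for Clic1, -0.13 for Clic3, -0.70 for Clic4, -1.11 for Clic5 and -0.43 for Clic6, against a median of -0.15 for all genes. In endothelial cells Clic4 and Clic5 were at similar ratios, -0.30 and -0.34, while Clic1 was at 0.76. In mesenchymal cells Clic5 was at -1.77, Clic4 at -0.10 and Clic1 at 0.08. In AT1-like cells, which carry the most Clic5 and Clic3, Clic4 and Clic1 were lower in KO, Clic3 was higher, and the Clic5 interval included 0. The summed epithelial markers of AT1-like cells, a sum led by Sftpb over all epithelial cells, were 1.39-fold higher in KO. The endothelial, immune and mesenchymal sums of AT1-like cells were higher in WT. The bearing of these sums on the ratios was not tested. No member was at least 1.5-fold higher in mesenchymal cells, where 3.33% of genes were, or in immune cells. How far each ratio depended on the processing is drawn in the plot of alternatives.

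**Figure D4:**
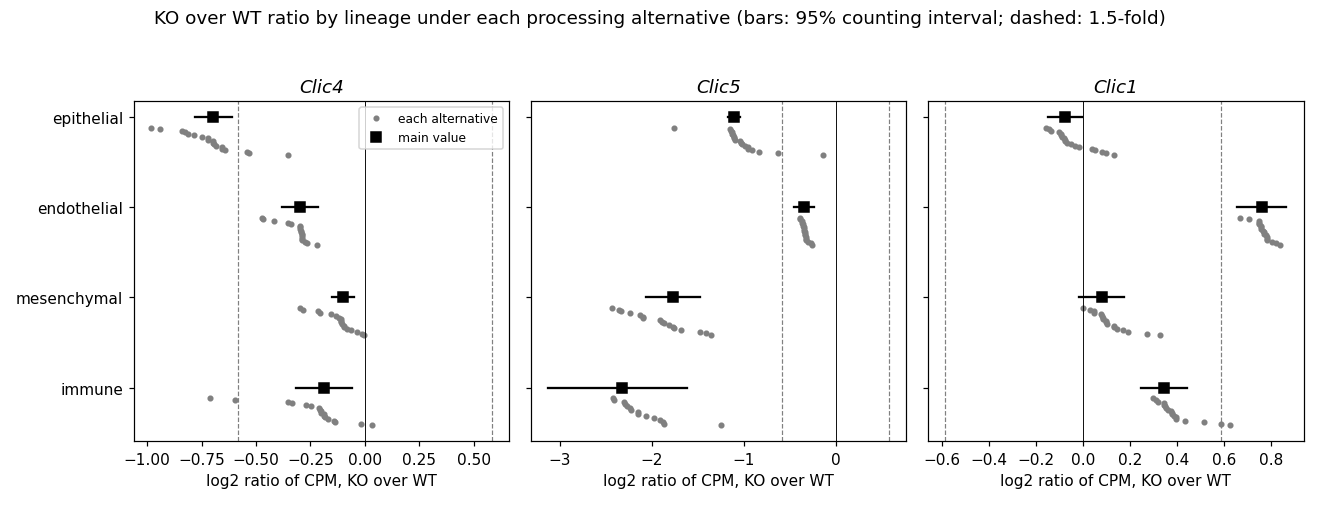
Log2 ratio of KO over WT for Clic4, Clic5 and Clic1 in the 4 lineages; squares with bars are the value and 95% counting interval of the text, grey points the same ratio under each alternative, and dashed lines 1.5-fold. Epithelial Clic4 lay below 0 under all 19 alternatives (-0.98 to -0.35), and endothelial Clic1 above 0 under all 18 (0.67 to 0.84).

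Genes that act with CLIC proteins were described by 4 lists. Of 12 partners at the cell cortex, 1 was at least 1.5-fold lower in KO epithelial cells and 0 higher, with a median of -0.31. That was Msn, which encodes moesin, at 286 CPM in WT and 174 in KO (-0.71). Rac1, a small GTPase of the actin cortex, was at -0.56 and Actb at -0.46, whereas Ezr, encoding ezrin, had 344 and 312 (-0.14). Moesin is also abundant in endothelial cells, at 718 CPM in WT and 724 in KO. The difference in Msn was thus seen where markers of endothelial and immune cells also differed. For Msn the scaled level of the other lineages was 35.9 of the 286 CPM in WT and 4.32 of the 174 in KO. The part of other cells in the difference was not tested beyond these values.

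Of 15 genes of CLIC4 and TGF-beta signalling, 3 were at least 1.5-fold lower in KO epithelial cells and 0 higher, with a median of -0.35. These were Ltbp1, a binding protein of latent TGF-beta (7.34 and 2.95 CPM, -1.31), the ligand gene Tgfb2 (40.1 and 19.2, -1.06) and the inhibitor Smad7 (53.6 and 35.2, -0.61). The scaled level of the other lineages was 9.17 CPM in WT and 1.94 in KO for Ltbp1, above its own level in WT, 11.8 and 1.61 for Smad7, and 1.96 and 0.373 for Tgfb2. Tgfb1 was at -0.51. Ppm1a, whose phosphatase acts on the SMAD proteins that CLIC4 is known to shield, had 59.7 and 47.8 (-0.32), and Smad3 had 55.2 and 49.0 (-0.17). In mesenchymal cells, where 10.8% of all genes were lower, 2 of the 15 were lower and 0 higher: Tgfb2 at 82.4 and 48.7 (-0.76) and Tgfb1 at 49.9 and 32.9 (-0.60). In immune cells 4 of the 15 were lower and 0 higher, against 19.5% of all genes. They were Hivep2 (-0.74), Tgfbr3 (-0.75), Tgfb2 and Ltbp1, the last 2 from 3 KO UMIs each. In endothelial cells 1 of 15 was lower, against 13.2% of all genes, and this was Tgfb3 with 80 and 2 UMIs. List counts and shares over all genes take in every gene with at least 50 UMIs in both libraries together, also those with fewer than 10 in 1 library, for which no ratio is given.

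Of 11 genes with a glutathione S-transferase fold or a thiol role that passed 50 UMIs (12 listed), 0 were at least 1.5-fold lower and 1 higher in epithelial cells. The higher gene was Gstp1, at 22.4 CPM in WT and 48.7 in KO (1.12). It was also higher in KO in endothelial (1.59), mesenchymal (1.36) and immune cells (1.76), while Gsto1, of the omega class nearest in fold to CLIC proteins, was at 193 and 147 in epithelial cells (-0.40). Of 22 other chloride channels and transporters, 3 were at least 1.5-fold lower and 0 higher in epithelial cells, with a median of -0.12. They were Lrrc8a, a subunit of the volume-regulated anion channel (18.4 and 9.24 CPM, -0.99), Ttyh3 (8.49 and 4.43, -0.94) and Ano1, a calcium-activated chloride channel (111 and 63.3, -0.82). The scaled level of the other lineages was 4.06 of the 18.4 CPM in WT for Lrrc8a, 4.72 of 8.49 for Ttyh3 and 0.405 of 111 for Ano1. The lists' shares of lower genes, 1 of 12, 3 of 15, 0 of 11 and 3 of 22, stand beside 13.8% of all genes.

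Similarity of pattern was measured as the Pearson correlation of log2(CPM + 10) across 62 points, each a class with at least 20 cells in 1 library, over 14663 genes with at least 200 UMIs. The points share 2 libraries and so their depth and stray transcripts, and the values describe them only. Nearest to Clic4 were Itpripl2 and Acvrl1 (both r = 0.86) and Nostrin, to Clic5 Arhgef26 and Jup (both 0.88) and Rasgef1a, and to Clic3 Mal2 (0.93), Prr15l and Crb3. Clic6 was nearest to Acox2 (0.96), Gm7173 and Plch1. Clic1 had the loosest neighbours, with Nubp2 at 0.73. Members were less alike than that among themselves. The highest value was that of Clic3 and Clic6 (0.53), Clic4 and Clic5 stood at 0.29, and Clic3 ran opposite to Clic4 (-0.49) and Clic1 (-0.47).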

How the data were processed

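Single-cell RNA sequencing was done by the study on 1 Pclaf WT and 1 Pclaf KO library. Each library came as deposited UMI counts, a genes-by-barcodes matrix that the authors made with Cell Ranger (version 3.1.0 per the submitters' notes, 5.0.0 in the header of the matrices) and no barcode held under 500 UMIs. The aligner named in the notes is STAR, with GRCm38 positions taken here from GENCODE M21. From the deposited counts, barcodes passed as cells with over 200 and under 5000 genes, of whose UMIs under 20% were mitochondrial. They were clustered with Seurat 5.3.0 (2000 variable genes without the Clic genes and Pclaf, 10 principal components, 20 neighbours, resolution 0.8), with 1 in 6 KO cells drawn and the others assigned by their nearest clustered cells. Clusters were named X-like from marker lists, by at least 3 markers, and some stayed unnamed. Doublets were kept, and leaving out those Scrublet called was an alternative (2642 WT and 422 KO cells). UMIs were summed per class and library and divided by all UMIs of the class (CPM). Log2 ratios carry the exact conditional 95% interval for 2 Poisson counts, shares the exact Clopper-Pearson interval, and a count of 0 was read against a floor of 3 counts. With 1 library per genotype no test was run. The script was tested on simulated counts. The members and lists were chosen with earlier results of these data known. Genes named were the 5 members, up to 4 per list with the ratio farthest from 0 in a lineage among those with at least 50 UMIs, Ppm1a, Smad3 and Ezr, and the 5 genes most correlated with each member. The values of Msn in endothelial cells were added after they were seen. Alternatives covered filters, doublets, clustering, scaling and depth.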

Additional observations from a re-analysis of the deposited data

How the results depend on the processing

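No value rests on a replicate, so a setting could move a value but end no test, and the cause of the moves was not tested. Epithelial Clic4, endothelial Clic4 and Clic5, mesenchymal Clic4, epithelial, mesenchymal and immune Clic5 and epithelial Clic6 stayed below 0, and endothelial, mesenchymal and immune Clic1 above 0, under every alternative run for them. Epithelial Clic4 fell short of 1.5-fold under 3 alternatives (the TMM factors, the scaled level taken off and cells with no marker UMI), and epithelial Clic5 under 1 (equal class weight). Epithelial Clic1 and Clic3 took either sign. So did mesenchymal Clic3 (-0.79 to 0.95, from 44 WT and 77 KO UMIs) and immune Clic3 (-2.29 to 1.10, from 282 and 14 UMIs). Immune Clic4 ran from -0.71 to 0.031, below 0 under 17 of 18 alternatives. TMM shifted every ratio by 0.16 in epithelial, 0.08 in endothelial, 0.09 in mesenchymal and 0.17 in immune cells. Leaving out shared barcodes, leaving out AT1-like cells and taking off the scaled level were chosen after seeing the data. No paired analysis was possible because each genotype had 1 library. Depth limits Clic3 and Clic6 outside the epithelium, where KO cells held few UMIs of them. For Clic5 it does so in immune cells, with 16 KO UMIs, against 708 in endothelial and 142 in mesenchymal cells of KO.

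With the limits of 200 and 5000 read as UMIs per cell, the log2 ratio in epithelial cells was 0.040 for Clic1 (opposite sign), -0.039 for Clic3, -0.94 for Clic4, -1.03 for Clic5 and -0.24 for Clic6, and in endothelial cells -0.42 for Clic4, and in mesenchymal cells -0.15 for Clic4 and -1.41 for Clic5, and in immune cells 0.62 for Clic1 and -0.71 for Clic4. With at least 500 detected genes, the log2 ratio in epithelial cells was -0.95 for Clic5, and in mesenchymal cells -0.038 for Clic4 and -2.13 for Clic5. With no upper limit on genes, the log2 ratio in immune cells was -0.33 for Clic4. With mitochondrial UMIs under 10%, the log2 ratio in epithelial cells was -0.99 for Clic5, and in mesenchymal cells -1.35 for Clic5. Without Scrublet doublets, the log2 ratio in mesenchymal cells was -2.24 for Clic5. With a second draw of KO cells, the log2 ratio in epithelial cells was -0.91 for Clic5, and in mesenchymal cells -2.09 for Clic5. With all kept cells clustered, the log2 ratio in epithelial cells was -0.16 for Clic1, -0.78 for Clic4 and -0.67 for Clic6. With 20 principal components, the log2 ratio in epithelial cells was -0.81 for Clic4 and -0.71 for Clic6, and in mesenchymal cells -2.44 for Clic5, and in immune cells 1.10 for Clic3 and -1.24 for Clic5. At a resolution of 0.4, the log2 ratio in epithelial cells was -0.84 for Clic4 and -0.70 for Clic6, and in immune cells -0.35 for Clic4. At a resolution of 1.2, the log2 ratio in epithelial cells was -1.01 for Clic5 and -0.58 for Clic6, and in mesenchymal cells -2.36 for Clic5. Without the AT1-like class, the log2 ratio in epithelial cells was -0.049 for Clic3 and -0.84 for Clic5. With edgeR's TMM factors, the log2 ratio in epithelial cells was 0.080 for Clic1 (opposite sign), 0.021 for Clic3 (opposite sign), -0.54 for Clic4 and -0.95 for Clic5, and in mesenchymal cells -0.012 for Clic4, and in immune cells 0.52 for Clic1 and -0.018 for Clic4. With equal class weight the levels of the classes were averaged, so classes with a high level count most. The log2 ratio in epithelial cells was then 0.13 for Clic1 (opposite sign), 0.32 for Clic3 (opposite sign), -0.83 for Clic4 and -0.14 for Clic5. In mesenchymal cells it was 0.33 for Clic1, 0.95 for Clic3, -0.28 for Clic4 and -2.09 for Clic5. With the scaled level of the other lineages taken off, the log2 ratio in epithelial cells was 0.049 for Clic1 (opposite sign) and -0.35 for Clic4, and in mesenchymal cells 0.27 for Clic1, -0.79 for Clic3, -0.0059 for Clic4 and -1.48 for Clic5, and in immune cells -2.29 for Clic3 and 0.031 for Clic4 (opposite sign). In thinned cells with no marker UMI of another lineage, the log2 ratio in epithelial cells was 0.098 for Clic1 (opposite sign), 0.026 for Clic3 (opposite sign), -0.53 for Clic4, -0.62 for Clic5 and -0.16 for Clic6, and in endothelial cells -0.47 for Clic4, and in mesenchymal cells -0.21 for Clic4. With the mean of single-cell CPM, the log2 ratio in epithelial cells was -0.33 for Clic3, -0.98 for Clic4, -1.76 for Clic5 and -0.14 for Clic6, and in endothelial cells -0.47 for Clic4, and in mesenchymal cells 0.19 for Clic1, -0.35 for Clic3, -0.30 for Clic4 and -2.33 for Clic5, and in immune cells 0.59 for Clic1 and -0.60 for Clic4. With cells thinned to 1000 UMIs, the log2 ratio in epithelial cells was -0.011 for Clic3, and in mesenchymal cells -0.36 for Clic3 and -0.21 for Clic4.

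Without thinning, the share of cells with a Clic4 UMI was higher in KO by 3.26 percentage points in epithelial and 6.94 in mesenchymal cells, the opposite sign of the thinned shares. Among genes with at least 200 UMIs, the share at least 1.5-fold lower was 8.79% in epithelial and 6.57% in mesenchymal cells. The share at least 1.5-fold higher was 1.67% in epithelial, 5.50% in endothelial, 1.96% in mesenchymal and 2.84% in immune cells.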
